A study of Mus musculus with 6 samples.

Results

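Interleukins are secreted proteins that carry signals between cells, and each acts through a receptor made of 1 or more membrane chains. Most receptors for the interleukin 6, 10 and 12 families and for the cytokines that use the common gamma chain signal through Jak kinases and Stat factors, whereas the interleukin 1 and 17 families signal through adaptor proteins towards NF-kB. In the colon, epithelial cells are known both to make some of these cytokines and to answer to those made by immune cells. The genes described here are all those whose mouse symbol is Il followed by a number. They numbered 82 of the 21966 genes measured: 38 encode ligands, 39 receptor chains, among which the decoy Il1r2 was counted, 4 other secreted or decoy inhibitors (Il1rn, Il18bp, Il13ra2 and Il22ra2) and 1 an amino acid oxidase (Il4i1). An antisense transcript of Il1b that carries such a symbol was not analysed here.

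The study asked how blocking the Group I Paks, a family of kinases, changes transcription in colon tumor cells. RNA was sequenced from primary epithelial cells grown from tumors of CDX2P-NLS-Cre;APC Δ/+ mice, in which a Cdx2 promoter drives Cre in the gut and 1 Apc allele is deleted. PID+ cells came from such mice that also carried ROSA26-PID, an allele that expresses the Pak inhibitor domain (PID) after Cre acts. PID- cells came from mice of the same kind without ROSA26-PID. The labels give 3 samples per condition, numbered 4, 7 and 26 for PID+ and 1, 2 and 3 for PID-, and call the PID- samples normal and untreated, although the methods describe tumor cells in both groups. The PID- numbers in the labels differ from those in the paper, so which PID- lines were sequenced is uncertain, while the PID+ numbers agree. The labels give no age. The cells were cultured, so what they lacked or held in culture need not be what the tumor held.

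The deposited values are FPKM, in which the fragments of a gene are divided by its transcript length and the size of the library. The reads of the 3 samples of a condition were merged before FPKM were calculated, so each gene has 1 pooled value per condition with the bounds of CuffDiff's confidence interval. The differences below therefore have no replicate check and no p-value. Changes are log2 ratios of FPKM + 1 in PID+ over PID- cells, on which changes of low genes look smaller than they are, and a gene is called changed where this ratio reached 3-fold. The depth is unknown, but the smallest values of genes with a single transcript come in steps, and 97.4% of 644 such values in PID+ and 97.7% of 607 in PID- cells lay within 0.1 of a whole number of reads. On a transcript of 1000 bases, 1 read was worth an FPKM of 0.018 in PID+ against 0.0131 in PID- cells.

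A single interleukin gene, the receptor chain Il17re, was changed at least 3-fold. It rose in PID+ cells, which makes 1 of 82 genes against 1.04% of all 21959 genes with a usable status in both conditions. None of the 82 was at least 3-fold lower, against 1.72% of all genes. On this scale a gene needs an FPKM of at least 2 in a condition to reach 3-fold, and 23 interleukin genes had that. Of all genes with that level, 2.08% were at least 3-fold higher and 3.42% at least 3-fold lower. The 1 call is 1.22% of the 82 and 4.35% of those 23, and with a single call neither share was tested. The deposited intervals were apart for none of the 82 and for 0.729% of all genes. The median log2 change of the 29 interleukin genes whose mean FPKM was 1 or more was 0.10, beside -0.0069 for 11480 genes of that level. When Gapdh was set equal in both conditions, the median of all those genes moved by -0.56 and that of the interleukin genes went to -0.48, so directions of small changes below rest on the scaling. By role, the medians were 0.12 for 10 ligands and -0.12 for 17 receptor chains, and -0.34 and -0.72 with equal Gapdh. Among those that reached an FPKM of 1, Il33, Il4ra, Il17ra, Il1r1, Il1rap, Il18, Il7 and Il4i1 were higher in PID+ cells as deposited and lower with equal Gapdh.

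Most of the interleukin genes were at low levels or near 0. An FPKM of at least 1 in a condition was reached by 34 genes, namely 12 ligands, 18 receptor chains, 3 inhibitors and Il4i1, and an FPKM of at least 10 by 12. These are 41.5% and 14.6% of the family, beside 53.7% and 36.2% of all genes. The higher FPKM of the 2 conditions had a median of 6.95 over the 34, beside 17.5 over the 11785 genes that reached 1. Of the 48 genes below 1 in both conditions, 36 were below 0.1, and 12 were listed at 0 in both. The share listed at 0 in both was 14.6%, beside 19.3% of all genes. Of the 34 genes, 18 were higher and 16 lower in PID+ cells. A ratio of FPKM + 1 of at least 2-fold was reached by 4 in each direction: Il17re, Il23a, Il15 and Il24 were higher, and Il13ra2, Il1rn, Il11 and Il13ra1 lower. Each 4 is 11.8% of the 34, beside 6.16% higher and 7.03% lower among all genes that reached 1. With equal Gapdh, Il17re alone of the 34 was at least 2-fold higher and 13 were at least 2-fold lower, or 38.2% beside 20.4% of all genes that reached 1. These shares were not tested.

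**Figure D1:**
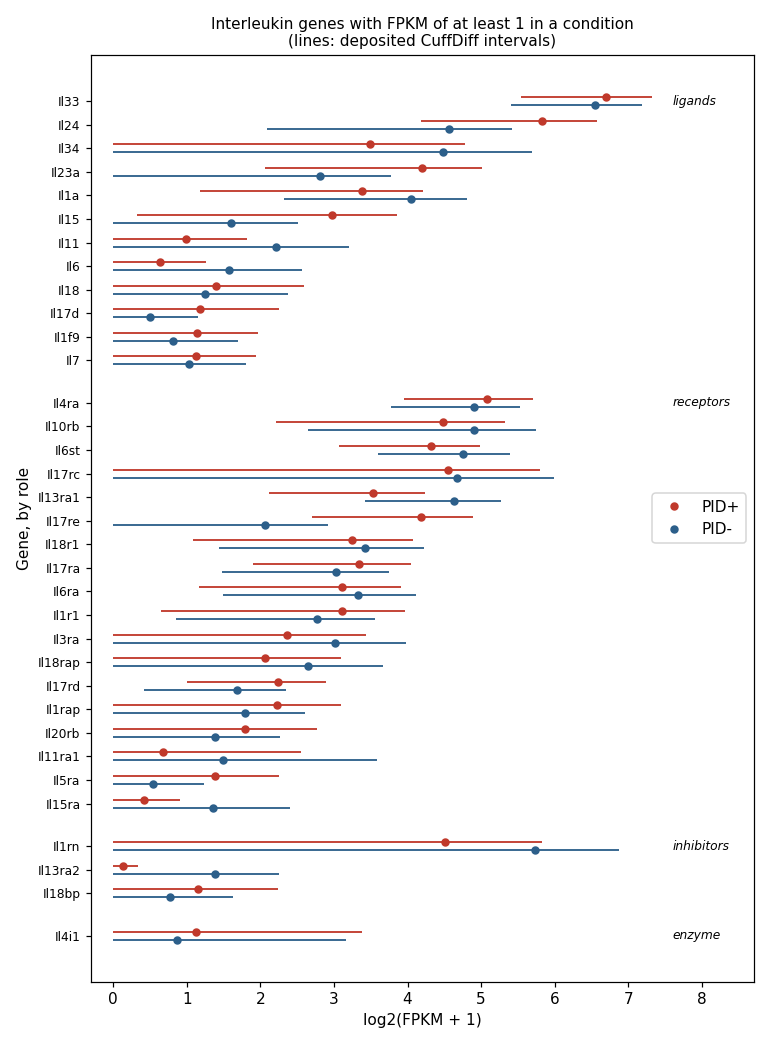
Pooled FPKM of the 34 interleukin genes that reached an FPKM of 1 in a condition, as log2(FPKM + 1), with PID+ cells in red and PID- cells in blue. Lines are the deposited CuffDiff intervals, which overlap between the conditions for every gene shown.

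Il33 was the most abundant ligand in both conditions. It encodes a nuclear cytokine of epithelial cells that is released on damage, and it made up 24.8% of the summed FPKM of the 82 genes in PID+ and 22.2% in PID- cells. Its FPKM was 102 in PID+ cells, with an interval from 45.7 to 159, and 92.8 in PID- cells, from 41.4 to 144. The log2 change was 0.14. Il33 lies on chromosome 19 from 29925114 to 29960718 of GRCm38. The chain that binds it, Il1rl1, had 0.499 FPKM in PID+ cells against 0.0658 in PID- cells, far below its ligand. Il1rl1 was one of the genes under 1 in both conditions, and was past 3-fold higher with a pseudocount of 0.1.

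Il24, a cytokine of the interleukin 10 family, was the next ligand. Its FPKM was 55.6 in PID+ cells, with an interval from 17.1 to 94.2, and 22.5 in PID- cells, from 3.27 to 41.8, with a log2 change of 1.27. The chains through which it can act were unevenly expressed. Il20rb had 2.47 (interval 0 to 5.82) FPKM in PID+ cells against 1.60 (0 to 3.81) in PID- cells. Its partners were low or not seen, with Il22ra1 at 0.472 and 0.405 and Il20ra listed at 0 in both conditions. Il10rb, which is shared by receptors for Il10 and Il22, had 21.4 (3.64 to 39.1) in PID+ against 28.8 (5.23 to 52.5) in PID- cells. Its log2 change of -0.42 became 0.088 after the median of chromosome 16, which was -0.50, had been subtracted. Gm21970 overlaps exons of Il10rb, and the kit does not mark strand, so reads of the pair cannot be told apart.

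Il23a, the subunit particular to the cytokine it forms with Il12b, was higher in PID+ cells. Its FPKM was 17.3 in PID+ cells, with an interval from 3.17 to 31.4, and 6.01 in PID- cells, from 0 to 12.6, with a log2 change of 1.38. The partner subunit Il12b and the related subunit Il12a were listed at 0 in both conditions. Il23r, the receptor chain for that cytokine, had 0.0444 FPKM in PID+ cells against 0.00461 in PID- cells, an estimated 7 and 1 reads. The data thus showed the mRNA of 1 subunit of the pair in both conditions, and the mRNA of the other was not detectable at this depth.

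Il15, which supports lymphocytes and is presented to them by Il15ra, was higher in PID+ cells, while its receptor chain was lower. The FPKM of Il15 was 6.86 (0.255 to 13.5) in PID+ against 2.04 (0 to 4.72) in PID- cells, with a log2 change of 1.37. Il15ra had 0.332 (0 to 0.882) in PID+ against 1.57 (0 to 4.29) in PID- cells, with a log2 change of -0.95. Il15 was past 3-fold higher and Il15ra past 3-fold lower with a pseudocount of 0.1. The ligand and its chain therefore went in opposite directions as values, with overlapping intervals for both.

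Among the ligands that were lower in PID+ cells, Il34 had the highest FPKM. Il34 is a ligand of the macrophage receptor Csf1r. Its FPKM was 10.2 (0 to 26.4) in PID+ cells against 21.3 (0 to 50.4) in PID- cells, with a log2 change of -1.0. The other ligand of that receptor, Csf1, had 12.3 and 31.0, with a log2 change of -1.27, and Csf1r itself was low, at 0.0595 and 0.233. Il1a, an alarm cytokine kept inside epithelial cells, had 9.39 (1.27 to 17.5) in PID+ against 15.5 (3.98 to 27.0) in PID- cells, with a log2 change of -0.67. Il1b, its inducible relative of myeloid cells, stood at 0.054 and 0.139.

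Il11 and Il6, which both signal through Il6st, were lower in PID+ cells too. Il11 had 0.980 (0 to 2.51) FPKM in PID+ cells against 3.64 (0 to 8.24) in PID- cells, with a log2 change of -1.23. Il6 had 0.548 (0 to 1.40) and 1.97 (0 to 4.92), with a log2 change of -0.94. Both were, with a pseudocount of 0.1 in place of 1, past 3-fold lower, since the smaller pseudocount weighs low values more. The remaining ligands above an FPKM of 1 were at low levels. Il18 had 1.64 (0 to 5.01) and 1.38 (0 to 4.17). Il17d had 1.27 (0 to 3.76) and 0.410 (0 to 1.23), with a log2 change of 0.69. Il1f9, an epithelial member of the interleukin 1 family, had 1.2 (0 to 2.89) and 0.755 (0 to 2.24), an estimated 120 and 104 reads. Il7, a growth factor of lymphocytes, had 1.18 (0 to 2.84) and 1.04 (0 to 2.49).

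The other 26 ligands stayed below an FPKM of 1 in both conditions, and the highest of them was Il1f6 with 0.795 in PID+ against 0.579 in PID- cells. The ligands made mainly by lymphocytes were near 0. Il13, Il9, Il17a and Il31 were listed at 0 in both conditions. Il2, Il3, Il4, Il5, Il21 and Il22 had at most 0.269, the value of Il4 in PID- cells. Il17f had 0.279 and 0.323. Il25, the cytokine of tuft cells, was listed at 0 in PID+ cells and had 1 estimated read in PID- cells, and Il10 likewise. Il17c, a ligand made by epithelial cells that acts on Il17re, had an FPKM of 0.221 in PID+ cells, an estimated 8 reads. Its deposited interval there, from 0 to 28.0, was very wide for that value, so the value is uncertain. Il17c was listed at 0 in PID- cells, and was past 3-fold higher with a pseudocount of 0.1.

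The receptor chain Il17re pairs with Il17ra to receive Il17c. It is encoded on chromosome 6 from 113458484 to 113470758, on the plus strand, and has the identifier ENSMUSG00000043088.13. Its FPKM was 17.1 in PID+ cells, with an interval from 5.49 to 28.7, and 3.17 in PID- cells, from 0 to 6.58. The PID+ value was 5.39 times the PID- value, the log2 change was 2.12, and the intervals overlapped between 5.49 and 6.58. The median log2 change of chromosome 6 was 0.34, and after its subtraction Il17re had 1.77, still past 3-fold. With equal Gapdh the log2 change was 1.53, just short of 3-fold.

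The neighbouring gene Il17rc, from 113471427 to 113483140 on the same strand, did not show that difference. Il17rc pairs with Il17ra to receive Il17a and Il17f, and it had 22.5 (0 to 54.7) FPKM in PID+ cells against 24.6 (0 to 62.4) in PID- cells, with a log2 change of -0.12 that became -0.47 after the chromosome 6 median had been subtracted. The common chain Il17ra had 9.10 (2.73 to 15.5) in PID+ against 7.11 (1.78 to 12.4) in PID- cells, with a log2 change of 0.32 that became -0.028 after the same step. Il17rd had 3.72 (1.01 to 6.42) and 2.21 (0.331 to 4.09), with a log2 change of 0.55, and 0.30 after the median of chromosome 14 had been subtracted. Il17rb, the chain for Il25, was near 0 with 0.0365 and 0.00582. In PID+ cells Il17re thus stood near Il17rc in FPKM, and in PID- cells it stood below both Il17rc and Il17ra.

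**Figure D2:**
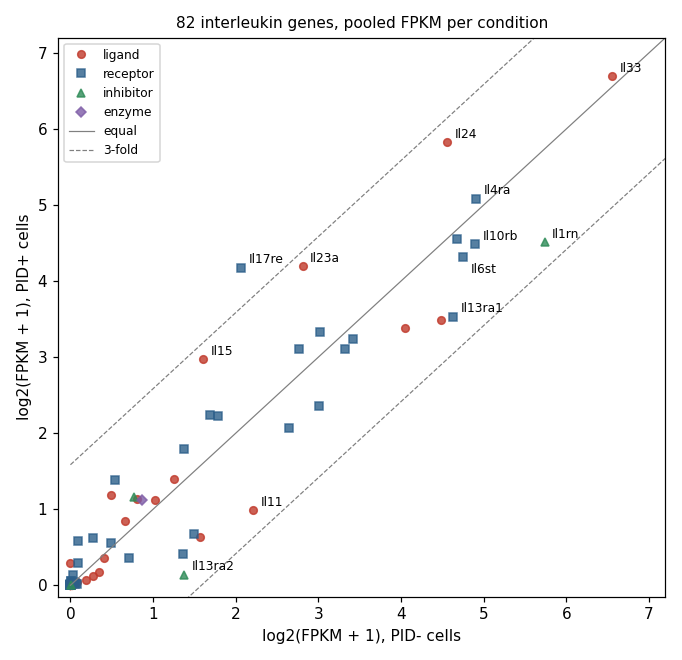
Pooled FPKM of the 82 interleukin genes in PID+ against PID- cells, both as log2(FPKM + 1), with symbols for the roles. The solid line marks equal values and the dashed lines mark 3-fold, and Il17re is the gene beyond them.

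The chains for Il4 and Il13 were among the best expressed receptors, although neither ligand was above an FPKM of 1. Il4ra had the highest FPKM of the receptor chains in PID+ cells, 32.8 (14.4 to 51.3), and 28.9 (12.7 to 45.1) in PID- cells, with a log2 change of 0.18. Il13ra1, with which Il4ra forms the receptor of non-lymphoid cells, had 10.6 (3.32 to 17.8) in PID+ against 23.7 (9.67 to 37.7) in PID- cells. Its log2 change was -1.09. Il13ra1 lies on the X chromosome, whose genes had a median of -0.45, and the change was -0.64 after that had been subtracted. When Gapdh was set equal, the change was -1.65, past 3-fold lower. The common gamma chain Il2rg, the partner of Il4ra in lymphocytes, was low with 0.283 and 0.629. Il7r and Il2ra were at or near 0.

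Il13ra2, a decoy that binds Il13 and is also on the X chromosome, was lower in PID+ cells. Its FPKM was 0.0981 (0 to 0.264) in PID+ cells against 1.60 (0 to 3.75) in PID- cells. The log2 change of -1.24 fell short of 3-fold because of the pseudocount, whereas the PID- value was 16.3 times the PID+ value. With a pseudocount of 0.1 it was past 3-fold, and after the X chromosome median had been subtracted the log2 change was -0.79.

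Il6st, the chain shared by the receptors for Il6, Il11 and related cytokines, had 19.0 (7.37 to 30.6) FPKM in PID+ cells against 26 (11.1 to 40.9) in PID- cells, with a log2 change of -0.43. Il6ra had 7.64 (1.25 to 14.0) and 9.04 (1.80 to 16.3), with a log2 change of -0.22. Il11ra1 had 0.595 (0 to 4.86) and 1.81 (0 to 10.9), and Il11ra2, a near-identical copy, was listed at 0, so how reads were divided between the copies is uncertain. Ccl27a also overlaps exons of Il11ra1. The ligands Il6 and Il11 and the chains Il6st, Il6ra and Il11ra1 were all lower as values in PID+ cells, also with each scaling tried. The intervals overlapped for each, and this grouping was chosen after values were seen. Among related cytokines, Lif (22.6 in PID+ against 18.5 in PID- cells), Clcf1 (22.7 and 19.4) and Ctf1 (1.10 and 0.0183) were higher as deposited. When Gapdh was set equal, Lif and Clcf1 were lower, at -0.32 and -0.38, and Ctf1 stayed higher at 0.75. Of the 13 receptor partners and related cytokines with an FPKM of at least 1 in a condition, 7 were higher and 6 lower as deposited. Of all 11785 genes of that level, 5826 were higher and 5959 lower. With equal Gapdh, Cntfr and Ctf1 alone of the 13 stayed higher. As deposited, 5 of the 13 (Csf2ra, Csf2, Csf1, Lifr and Osmr) were at least 2-fold lower, or 38.5% beside 7.03% of all genes. At least 2-fold higher were 2 (Cntfr and Ctf1), or 15.4% beside 6.16%. These shares were not tested.

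Some receptor chains of the interleukin 1 family were expressed at moderate levels, while others were below an FPKM of 1 in both conditions. Il18r1 had 8.45 (1.12 to 15.8) FPKM in PID+ cells against 9.72 (1.70 to 17.7) in PID- cells, and its partner Il18rap had 3.19 (0 to 7.55) and 5.24 (0 to 11.7), with a log2 change of -0.58. Il1r1, the receptor for Il1a and Il1b, had 7.63 (0.575 to 14.7) and 5.81 (0.80 to 10.8), with a log2 change of 0.34. Il1rap, the accessory chain that Il1r1 and Il1rl1 share, had 3.67 (0 to 7.53) and 2.45 (0 to 5.09). Its log2 change of 0.43 became 0.94 after the median of chromosome 16 had been subtracted. The decoy receptor Il1r2 was below 1, with 0.223 and 0.0612, as were Il1rl1 and Il1rl2. Il1rapl1 and Il1rapl2 were listed at 0 in both conditions.

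2 receptor chains usually found on blood cells were also above an FPKM of 1. Il3ra had 4.14 (0 to 9.77) in PID+ against 7.05 (0 to 14.7) in PID- cells, with a log2 change of -0.65. Il5ra had 1.61 (0 to 3.78) and 0.447 (0 to 1.35), with a log2 change of 0.85, and was past 3-fold higher with a pseudocount of 0.1. The beta chains these receptors need, Csf2rb and Csf2rb2, were at most 0.0033. The other 21 receptor chains were below 1 in both conditions, with Il2rg the highest of them.

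The antagonist Il1rn, which occupies Il1r1 without signaling, was the most abundant inhibitor. It lies on chromosome 2 from 24336853 to 24351494. Its FPKM was 21.7 in PID+ cells, with an interval from 0 to 55.9, and 52.3 in PID- cells, from 0 to 117, with a log2 change of -1.23. With equal Gapdh it was past 3-fold lower. In both conditions the FPKM of Il1rn was above that of the agonists Il1a and Il1b. Il18bp, which binds Il18, had 1.23 (0 to 3.71) and 0.708 (0 to 2.08), and exons of Numa1 overlap it. The enzyme Il4i1 had 1.18 (0 to 9.41) and 0.823 (0 to 7.96), and it overlaps exons of Atf5, Nup62 and Tbc1d17, so both values are uncertain. The summed FPKM of the inhibitors was 23.1 in PID+ against 54.6 in PID- cells, that of the ligands 210.4 and 171, and that of the receptor chains 178 and 191. With equal Gapdh the PID+ sum of the ligands was 136, so the direction for the ligands rests on the scaling.

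A promoter of Il1rn is shown because this gene was the most abundant inhibitor and was lower in PID+ cells. It is the 250 bases before a start from RefSeq (GRCm38.p6), 5′ to 3′ on the plus strand, and capitals mark matches to searched motifs. The motifs were TGANTCA (AP-1), GGGA and CC with 4 bases between them (NF-kB), TTCNNNGAA (Stat factors) and CACCTG (an E-box), on both strands. The window is chr2:24336610-24336859, before the first of several starts, and its last 7 bases lie in an exon of Gencode M21. The RefSeq window of Il17re lies wholly in an exon of M21, so it is not shown as a promoter.
Il1rn: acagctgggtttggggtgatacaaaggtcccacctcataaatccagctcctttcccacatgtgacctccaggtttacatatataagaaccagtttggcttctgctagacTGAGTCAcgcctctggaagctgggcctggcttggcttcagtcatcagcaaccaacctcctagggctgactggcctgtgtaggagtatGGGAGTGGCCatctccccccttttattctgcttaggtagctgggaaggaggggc
This window of Il1rn held 1 match to the AP-1 motif and 1 to the NF-kB motif. Its next window, chr2:24345041-24345290, held none of the 4 motifs. Of 27025 genes with a promoter in the table, counting a gene with several starts once, 7.82% held the AP-1 motif, 19.7% the NF-kB motif, 8.13% the Stat motif and 19.4% the E-box. Among the 65 interleukin genes that matched, the counts were 14, 16, 8 and 11, or 21.5%, 24.6%, 12.3% and 16.9%. The differences between these shares and those of all genes were not tested. The windows of Il33, the most abundant ligand, held none of the 4 motifs. That of Il13ra1 held matches to the NF-kB motif and the E-box. A match describes the letters and not a bound site.

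The 6 lists of pathway genes that serve these receptors hold 95 genes, of which 66 had an FPKM of at least 1. At least 3-fold lower in PID+ cells were 6, or 6.32% beside 1.72% of all genes, and 0 were at least 3-fold higher. Where the FPKM was at least 2 in a condition, the 6 made up 9.84% of 61 genes, beside 3.42% of all genes with that level. The lists were chosen with earlier results known, and these shares were not tested. Of 11 Jak and Stat genes, 10 had an FPKM of at least 1, and Jak2 was the 1 past 3-fold, lower in PID+ cells at 23.6 against 73.7, with a log2 change of -1.60. It was the most abundant of the list in PID- cells, whereas Stat6, which serves Il4ra, was so in PID+ cells with 43.7 against 46.0. The median was -0.19 over the 10 genes of the list with a mean FPKM of 1 or more. Of 12 Socs and Pias genes, which restrain that signaling, none was past 3-fold. Socs6 was the most abundant in PID+ cells, with 30.2 against 35.3. Socs2 was so in PID- cells, with 17.7 in PID+ against 42.0 in PID- cells, and Socs3, a gene induced by Il6st signaling, had 5.57 and 14.7. With equal Gapdh both Socs2 and Socs3 were past 3-fold lower, at -1.78 and -1.77. The median was -0.22 over the 11 genes of this list with a mean FPKM of 1 or more.

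Of 20 genes of interleukin 1 and 17 signaling, 19 had an FPKM of at least 1 and none was past 3-fold as deposited. Peli2, with 0.225 in PID+ against 2.65 in PID- cells, fell just short at -1.58 and was past 3-fold lower with 4 of the alternatives. Irak3, with 0.115 and 1.30, was so with a pseudocount of 0.1. The most abundant was Irak1, a kinase of the receptor complex on the X chromosome, with 55.6 in PID+ against 84.2 in PID- cells. The median was -0.24 over the 18 genes with a mean FPKM of 1 or more. Of 18 receptor partners and related cytokines, none was at least 3-fold higher and 2 were at least 3-fold lower. Osmr, the partner of Il6st for oncostatin M, had 1.31 in PID+ against 6.16 in PID- cells, with a log2 change of -1.63. Csf2, a growth factor of myeloid cells, had 0.309 and 2.97, with a log2 change of -1.60. Cntfr, with 6.41 in PID+ against 1.48 in PID- cells, fell just short of 3-fold higher at 1.58. It was past it with a pseudocount of 0.1 and with chromosome medians subtracted. Ctf1, with 1.10 and 0.0183, was past 3-fold higher with a pseudocount of 0.1. The most abundant of the list were Clcf1 in PID+ cells, at 22.7, and Csf1 in PID- cells. The median was -0.16 over the 11 of these 18 genes with a mean FPKM of 1 or more.

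Genes that process cytokines of the interleukin 1 family held the largest differences of the pathway lists beside Lcn2. Of 10, 2 were past 3-fold, both of them lower in PID+ cells. Casp1, which cleaves the precursors of Il1b and Il18, had 0.435 FPKM in PID+ cells against 6.44 in PID- cells, with a log2 change of -2.37. Casp4, which acts in the same pathway on sensing bacterial lipid, had 1.18 and 25.5, with a log2 change of -3.61 and intervals from 0 to 3.22 and from 3.21 to 47.9 that barely overlapped. Casp8 was the most abundant in PID+ cells with 71.4 against 53.6, and Aim2, a sensor of DNA, in PID- cells with 61.6 against 31.5. The adaptor Pycard was near 0, with 0.024 in PID+ cells and a value listed at 0 in PID- cells.

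Of 24 known target genes of interleukins, 1 was past 3-fold. Lcn2, an iron-binding defence protein induced by Il17a and Il22, had 4.28 FPKM in PID+ cells against 79.3 in PID- cells, with a log2 change of -3.93, and its intervals, from 0 to 9.84 and from 29.5 to 129, were apart. The chemokine Cxcl5 was the most abundant of the list, at 319 and 230.2, with a log2 change of 0.47 that became -0.15 with equal Gapdh. Saa1, Saa2, Reg3g and Retnlb were listed at 0 in both conditions. Over genes with a mean FPKM of 1 or more, all 6 pathway lists had a median below that of all genes. As deposited, these medians ran from -0.16 to -0.95, beside -0.0069. The lowest came from 5 of the 10 processing genes, and that of the target genes rested on 6 of 24. Genes of the lists below that level were left out.

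Markers of other cell types were checked because many interleukins are made by leukocytes, and in bulk RNA fewer cells of a type and less RNA per cell cannot be told apart. None of 9 T cell markers had an FPKM of at least 1, and Cd3d, Cd3e, Cd3g and Cd4 were listed at 0 in both conditions. Their summed FPKM was 0.417 in PID+ cells against 0.443 in PID- cells, most of it Lck. The 5 B cell markers summed to 0.18 and 0.055, with Cd79a the highest. Of 9 mast cell and basophil markers none reached 1, and the sums were 0.47 and 0.623. Gata2 was the most abundant in PID+ cells and Hdc in PID- cells, and Fcer1a, Ms4a2, Cpa3, Tpsb2 and Tpsab1 were listed at 0. The 7 NK and innate lymphoid markers summed to 3.24 and 4.04, nearly all Gata3 and Eomes, while Ncr1, Nkg7 and Prf1 were listed at 0.

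Of 10 leukocyte and macrophage markers, Cd68 and Cd14 had an FPKM of at least 1. The sums were 51.6 and 46.4, and Cd14 was the most abundant with 29.1 and 28.6, followed by Cd68 with 21.8 and 16.8. Fcgr3 had 0.544 and 0.658. Ptprc, present on nearly all leukocytes, had 0.0264 and 0.00811, and Lyz2 was listed at 0 in PID+ cells and had 0.0393 in PID- cells. The list thus did not agree, with Cd14 and Cd68 well above 1 and Ptprc near 0. Of 7 tuft cell markers, Dclk1 alone reached 1, with 1.93 and 2.36, and the sums were 2.18 and 3.24. Of 5 endothelial markers, Kdr alone reached 1, with 3.33 and 1.01, and the sums were 3.77 and 1.12.

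Fibroblast and epithelial markers did differ between the conditions. Of 9 fibroblast markers, Col1a1, Col1a2, Col3a1 and Dcn were past 3-fold, each of them lower in PID+ cells, and the sums were 3.08 in PID+ against 34.2 in PID- cells. Col1a1 was the most abundant in PID+ and Col1a2 in PID- cells, the latter with 0.065 in PID+ against 11.9 in PID- cells and intervals apart, and Lum was listed at 0 in both. Of 10 epithelial markers, Epcam and Cldn7 were at least 3-fold higher in PID+ cells, with log2 changes of 1.68 and 1.77 that fell to 1.06 and 1.15 with equal Gapdh, under which neither was past 3-fold, and Epcam was not with equal total FPKM either. Cdx2 was at least 3-fold lower, with 0.542 and 8.04. The sums were 9120 in PID+ against 4980 in PID- cells, Krt18 was the most abundant in PID+ and Krt19 in PID- cells, and Vil1 was low with 0.175 and 0.0614. The part of these differences in the changes of the interleukin genes was not tested.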

How the data were processed

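Gene expression was measured by RNA-seq of poly A selected RNA from cultured colon tumor cells, with a kit that does not mark strand. The authors trimmed adapters (CutAdapt) and used TopHat, with GRCm38.p3 and protein coding gene models, to place the reads of 3 sets per condition in 1 alignment. They deposited FPKM that CuffDiff computed from these with compatible hits normalization. The labels name 3 mice for these sets, and the methods speak of replicated sequencing runs. The bounds of CuffDiff's confidence interval, deposited on the FPKM scale, were used as given and cover its error model only. A further column of the authors' standard deviations was not used, so 1 numeric column was left out. Rows called treated were taken as PID+.

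Of 21966 genes, 7 with a status other than OK were left out. Symbols came from a reference table matched on the identifier without its version, and 21734 identifiers matched. Roles were assigned by hand. Positions, transcripts and overlapping exons came from Gencode M21 (GRCm38); the authors' annotation release is not stated. What a read was worth was estimated as FPKM times the length less 190 bases, over genes of more than 600 bases that have a single transcript in M21 and the same identifier version. This correction gave the most whole numbers of 32 tried. Estimated reads are given for such genes alone.

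The members and gene lists were chosen with earlier results of these data known. Interleukin genes that reached an FPKM of 1 in a condition are named with values and intervals. Pathway and marker genes are named when changed at least 3-fold from or to an FPKM of 1 or more, or when most abundant. Other genes, the pairing of ligands with receptors, the grouping into families, the promoter shown and the motifs were chosen after values were seen. The alternatives tried were equal Gapdh, equal totals, equal upper quartiles above 0, a pseudocount of 0.1, subtraction of chromosome medians, a minimum mean FPKM of 5 (also used for those medians), and intervals that do not overlap. The calculations were tested on simulated data. Python 3.11.15, numpy 2.4.6, pandas 2.3.3 and matplotlib 3.10.9 were used.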

Additional observations from a re-analysis of the deposited data

How the results depend on the processing

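The count of interleukin genes at least 3-fold higher was 1 as deposited, with equal total FPKM, with equal upper quartiles, with chromosome medians subtracted and with a minimum mean FPKM of 5, and the count at least 3-fold lower was 0 in each of these. With the minimum of 5, 17 interleukin genes remain, of which the 1 is 5.88%, beside 1.54% of all genes kept. With a pseudocount of 0.1 the counts were 5 higher (Il5ra, Il1rl1, Il15, Il17re and Il17c) and 4 lower (Il11, Il15ra, Il6 and Il13ra2), since a smaller pseudocount gives low values more weight. These are 6.10% and 4.88% of the 82, beside 2.83% and 3.62% of all genes with that pseudocount. With equal Gapdh they were 0 higher and 2 lower (Il13ra1 and Il1rn), since that scaling divides all PID+ values by 1.54. The 2 are 2.44%, beside 3.01% of all genes lower and 0.346% higher with that scaling. None of these shares was tested. Requiring intervals that do not overlap left 0 higher. The median log2 change was 0.10 as deposited, -0.48 with equal Gapdh, -0.068 with chromosome medians subtracted and -0.18 with a minimum mean FPKM of 5; the cause of the latter 2 shifts was not tested. Of the 34 named genes, 8 changed sign with equal Gapdh and 4 (Il4ra, Il10rb, Il17ra and Il7) with chromosome medians subtracted, none of which was past 3-fold. For single genes a shift was judged against the deposited interval, and Il13ra2 alone moved beyond it, to -3.10 with a pseudocount of 0.1. No paired analysis was possible because the values are pooled per condition, and for the same reason leaving out each replicate in turn was not run. Depth limits the genes near 0, where 3 reads on a transcript of 1000 bases would amount to 0.054 FPKM with PID and 0.0392 without it. Among the pathway and marker lists, genes past 3-fold only in an alternative included, with equal Gapdh, Csf1, Socs2, Socs3, Peli2 and Cxcl2 lower, with equal totals Peli2 and Cxcl2 lower, and with chromosome medians subtracted Peli2 lower and Cntfr higher. With a pseudocount of 0.1 they included Hdc, Pdgfrb, Thy1, Irak3, Peli2, Cxcl2, Ccl20 and Nos2 lower and Cdh5, Kdr, Cntfr, Ctf1 and S100a9 higher.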

Other observations

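Several interleukin genes lie side by side in the genome, and neighbours differed widely in level. On chromosome 1, Il24 (130882074 to 130887454) had 55.6 FPKM in PID+ cells against 22.5 in PID- cells, while the adjacent Il20 had 0.0146 in PID+ cells and was listed at 0 in PID- cells. Il19 had 0.0273 and 0.0601, and Il10, at the far end of the cluster (131019845 to 131024974), was listed at 0 in PID+ cells and had 0.00944 in PID- cells. The difference between the conditions in Il24 was therefore not seen in these 3 neighbours, which were too low to show one.

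A second cluster on chromosome 1 holds 6 receptor genes of the interleukin 1 family, from Il1r2 (starting at 40074079) to Il18rap (ending at 40551705). Il18r1 and Il1r1 had the highest FPKM there and Il18rap was next. Il1rl2, which receives Il1f6 and Il1f9, had 0.0118 in PID+ against 0.0427 in PID- cells, far below Il1f9. On chromosome 2, Il1rn was well expressed in both conditions beside Il1f10, which was listed at 0 in both, and Il1f5, which had 0.0244 and 0.0153.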
